A study of Mus musculus with 18 samples.

Results

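Retinoic acid, a small signalling molecule made from vitamin A, is handled in cells by genes for uptake, synthesis, breakdown, binding and nuclear receptors. The 9 genes described here were chosen as a list by these roles: Stra6, Dhrs3, Aldh1a2, Cyp26a1, Crabp1, Crabp2, Rara, Rarb and Rarg. All 9 were among the 25279 genes of the count table, and all 9 were among the 20267 genes kept after a filter on low counts. The libraries hold RNA of mouse embryonic stem cells (ESC) with a conditional knockout of Oct1 (cKO; Oct1 is the transcription factor encoded by Pou2f1) and of parental ESC, at days 0, 3 and 6 of differentiation towards mesoderm. Each of the 6 groups (cKO at days 0, 3 and 6, and parental at days 0, 3 and 6) had 3 libraries. Replicate numbers used below were assigned here in the order of the library titles and are not from the labels. The labels give neither the Cre driver nor the number of clones, and do not tell whether a group's 3 libraries are 3 cultures, so the p-values speak only of the spread between libraries, which may be technical.

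In vertebrate embryos, retinol enters cells, is oxidised to retinaldehyde and then to retinoic acid, which binds receptors that sit on DNA as partners of retinoid X receptors. Cells limit the signal by reducing retinaldehyde back to retinol and by oxidising retinoic acid. In the mouse trunk, retinoic acid made in the somitic mesoderm opposes caudal signals near the primitive streak and patterns the neural tube and somites.

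Promoter windows of 8 of the 9 genes (17 windows of 300 bases, from 250 bases before to 50 bases after a RefSeq transcription start, GRCm38.p6) were searched on both strands for direct repeats spaced by 5 bases, in which each repeat could be AGGTCA itself, the variant AGTTCA, the further variant GGGTCA or the remaining variant GGTTCA. This is the classical arrangement bound by retinoic acid receptors. The windows were also searched for the octamer ATGCAAAT, the classical site of Oct1 and related POU factors. The repeat spaced by 5 bases occurred in the windows of Cyp26a1 and Rarb among these genes and in 0.0974% of 32851 promoter windows. The octamer occurred in the window of Aldh1a2, and in 1.74% of all windows. The same cores spaced by 1 or 2 bases, in 0.222% and 0.268% of all windows, were found in none of the 17. Crabp2 had no window and was not searched for any of these sites. The 3 windows with a match are shown because they belong to the breakdown enzyme, a receptor and the synthesis enzyme whose values follow. They run 5′ to 3′ on the gene's strand, and capitals mark the match: on the antisense strand at -32 to -16 from the start in Cyp26a1 (chr19:37697558-37697857, plus strand), at -53 to -37 in Rarb (chr14:16575427-16575726, minus strand) and at -84 to -77 in Aldh1a2 (chr9:71215539-71215838, plus strand). A match is a description of the letters and was not tested for binding.
Cyp26a1: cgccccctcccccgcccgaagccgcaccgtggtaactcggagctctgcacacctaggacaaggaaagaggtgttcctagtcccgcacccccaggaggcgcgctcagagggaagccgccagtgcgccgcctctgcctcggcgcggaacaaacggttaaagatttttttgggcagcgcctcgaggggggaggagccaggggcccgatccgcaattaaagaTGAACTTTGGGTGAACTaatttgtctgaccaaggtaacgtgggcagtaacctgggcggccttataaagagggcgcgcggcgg
Rarb: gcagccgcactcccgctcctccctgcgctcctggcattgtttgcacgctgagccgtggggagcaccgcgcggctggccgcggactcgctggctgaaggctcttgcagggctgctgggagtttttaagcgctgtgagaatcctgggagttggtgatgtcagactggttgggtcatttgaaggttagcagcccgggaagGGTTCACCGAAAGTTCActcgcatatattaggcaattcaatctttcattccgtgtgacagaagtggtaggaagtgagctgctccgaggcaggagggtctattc
Aldh1a2: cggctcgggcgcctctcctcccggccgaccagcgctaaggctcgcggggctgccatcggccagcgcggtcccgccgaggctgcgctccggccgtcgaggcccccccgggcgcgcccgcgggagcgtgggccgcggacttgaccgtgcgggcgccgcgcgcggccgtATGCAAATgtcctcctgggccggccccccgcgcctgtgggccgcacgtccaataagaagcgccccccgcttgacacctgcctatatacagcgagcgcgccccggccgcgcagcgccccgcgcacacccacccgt

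Library totals ranged between 13704958 and 26995420 counts. Pou2f1 itself was at 62.2 to 95.3 CPM (counts scaled to a common library size) in the 9 cKO libraries and at 123 to 142 CPM in the 9 parental libraries, with no overlap. The 8 naive pluripotency markers summed to 4466 to 4848 CPM at day 0 in cKO libraries and 4055 to 4071 CPM in parental libraries, and to at most 52.3 CPM at day 6 in cKO libraries and 61.0 CPM in parental libraries. cKO day 6 replicate 2 stood apart from its group: its root mean square log2 difference was 0.83 from replicate 1 and 0.81 from replicate 3, against 0.44 between replicates 1 and 3. Results that rest on this library are given with and without it; all groups share 1 estimate of the spread in the fit, and calls at other days also changed when it was left out. Differences between groups were tested with edgeR's quasi-likelihood test, and a gene was called when its p adjusted by the Benjamini-Hochberg method over all genes tested was under 0.05. Changes are log2 differences with their standard error (SE), and a gene's levels are CPM. In bulk RNA, fewer cells of a type and less RNA per cell cannot be told apart.

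**Figure D1:**
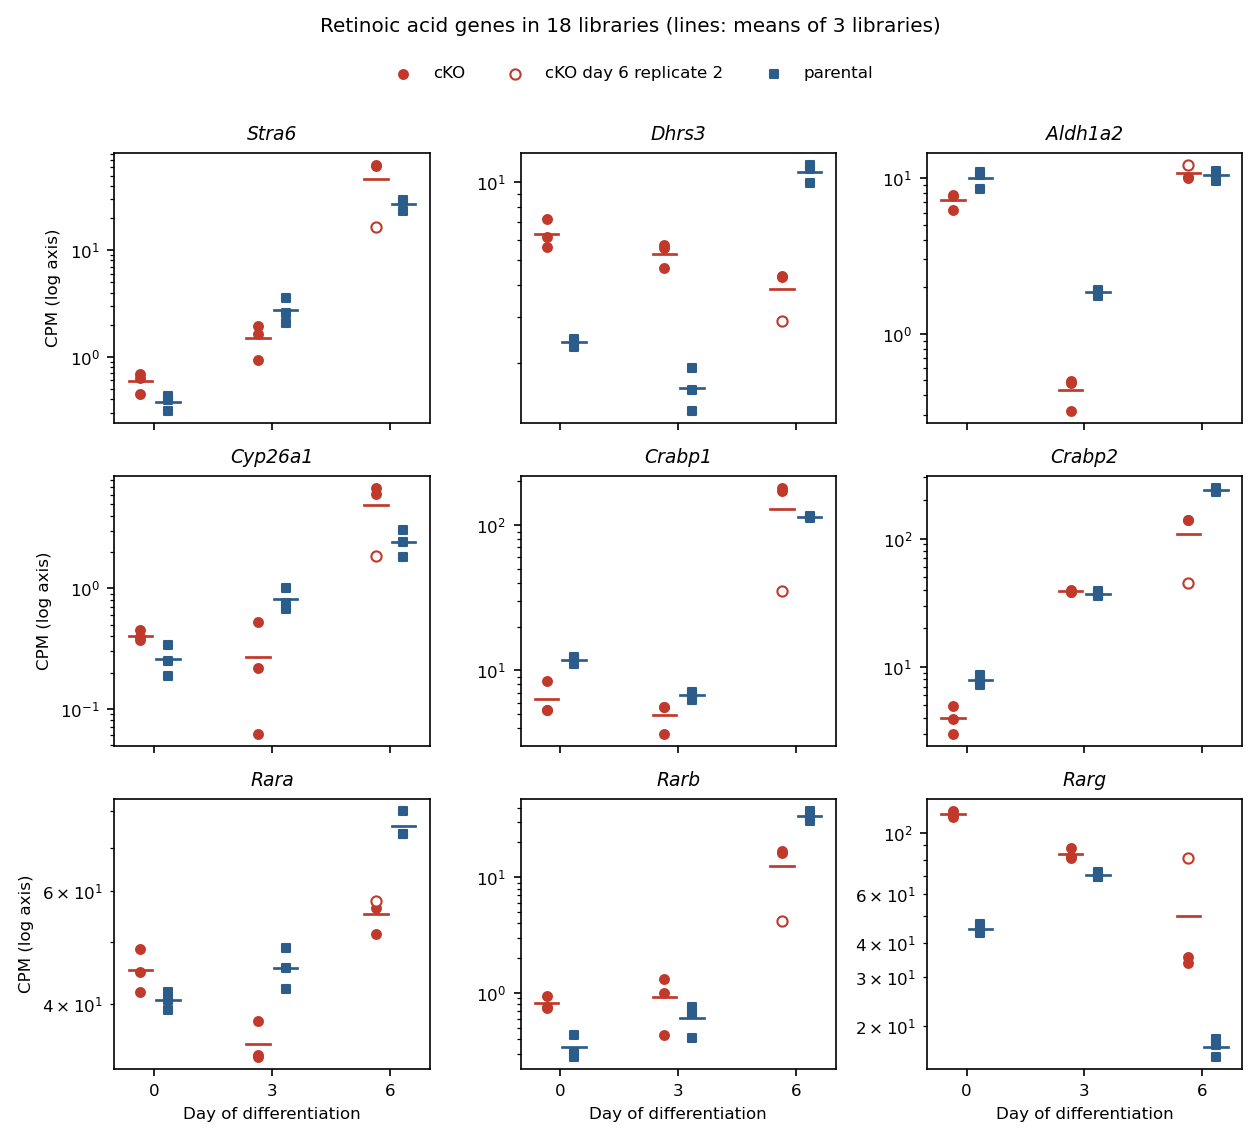
Level of each of the 9 retinoic acid genes in the 18 libraries, in CPM on a log axis, against day of differentiation. Points are single libraries of cKO and parental cells, drawn side by side at each day. Dhrs3 is higher in cKO than in parental libraries at days 0 and 3 and lower at day 6. cKO day 6 replicate 2 lies away from its group for Rarb, Crabp1, Crabp2, Stra6, Cyp26a1 and Rarg, and less far for Dhrs3.

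At day 0, before differentiation, cKO cells had more RNA of the receptor Rarg and of the reductase Dhrs3, and less of the synthesis enzyme Aldh1a2, than parental cells. Thus 2 of the 9 genes were higher and 1 lower, against 31.6% of all tested genes called in this comparison (15.1% higher, 16.5% lower). At day 3, Dhrs3 was higher and Aldh1a2 and Rara lower, 3 of 9, against 15.7% of all genes (6.32% higher, 9.39% lower). At day 6, Rarg and Cyp26a1 were higher and Dhrs3, Rarb, Crabp2 and Rara lower, 6 of 9, against 45.6% of all genes (19.9% higher, 25.7% lower). Without cKO day 6 replicate 2, 6, 7 and 8 of the 9 genes were called at days 0, 3 and 6, against 42.4%, 29.2% and 45.5% of all genes. The median log2 difference of the 9 genes was 0.63 at day 0, -0.40 at day 3 and 0.05 at day 6, against 0, -0.0047 and -0.09 over all genes. cKO and parental libraries did not overlap for 52.4% of all tested genes at day 0, 40.1% at day 3 and 51.5% at day 6. Statements below that groups do not overlap are to be read against these shares. The titles of day 0 libraries begin with another number than those of days 3 and 6, and the labels do not say what it marks, so for day 3 against day 0 that number and the day cannot be told apart.

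**Figure D2:**
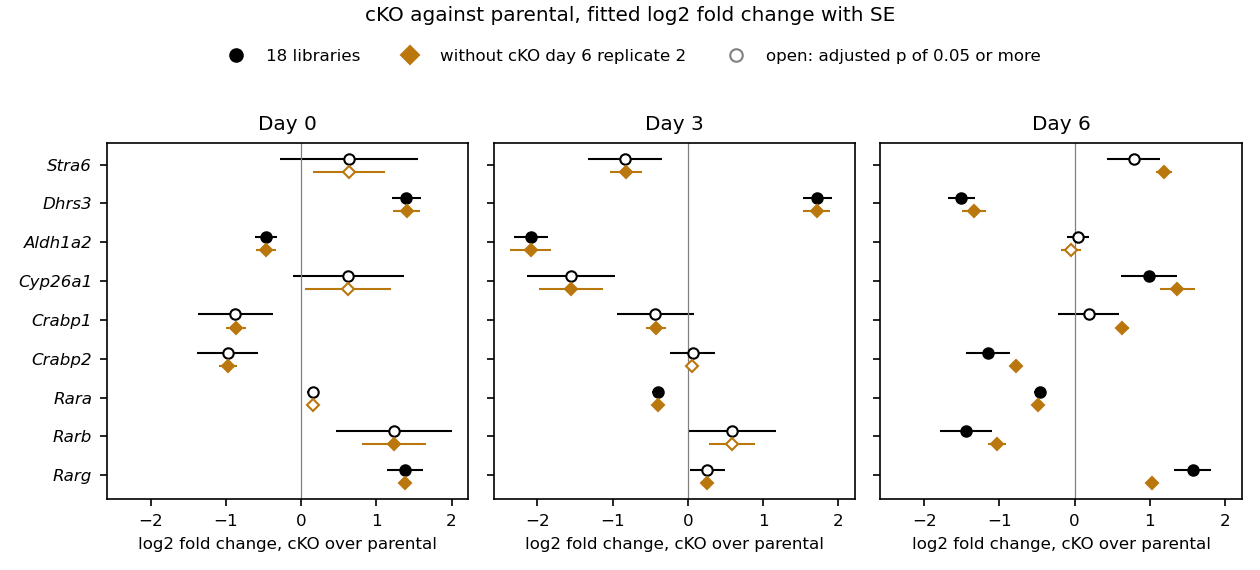
Log2 difference of cKO over parental cells for the 9 retinoic acid genes at days 0, 3 and 6, with the standard error of edgeR's fit; filled points have an adjusted p under 0.05. Dhrs3 is at 1.40, 1.72 and -1.50, and Rarg at 1.38, 0.26 and 1.57.

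Stra6 (ENSMUSG00000032327; GRCm38 chromosome 9, 58063788 to 58153996), the membrane receptor through which retinol enters cells from its carrier in blood, was low until day 6. It was at 61.4, 16.5 and 62.6 CPM in the day 6 cKO libraries, against 23.3, 29.7 and 28.7 CPM in the parental ones. cKO replicates 1 and 3 lie above every parental library and replicate 2 below them, so the groups overlap. The difference at day 6 did not pass the test (0.78, adjusted p = 0.0847), and it was called as higher without replicate 2 (1.19, SE 0.11). At day 3 Stra6 was at 1.93, 0.93 and 1.64 CPM in cKO libraries, against 2.57, 3.54 and 2.09 CPM in parental libraries, a difference of -0.83 (adjusted p = 0.309) that passed the test once cKO day 6 replicate 2 was left out (adjusted p = 0.00261).

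Dhrs3 (ENSMUSG00000066026; chromosome 4, 144892827 to 144928209), the reductase that turns retinaldehyde back to retinol, was higher in cKO cells at days 0 and 3 and lower at day 6. At day 0 it was at 6.13, 5.64 and 7.19 CPM in cKO libraries, against 2.43, 2.30 and 2.47 CPM in parental libraries. At day 3 it was at 4.64, 5.70 and 5.56 CPM in cKO libraries, against 1.58, 1.92 and 1.305 CPM in parental libraries. At day 6 it was at 4.34, 2.90 and 4.29 CPM in cKO libraries, against 9.92, 11.2 and 11.6 CPM in parental libraries. No library of one genotype reached the other's range on any of the 3 days, with cKO above at days 0 and 3 and below at day 6. The log2 differences were 1.40 (SE 0.19, adjusted p = 2.21e-05), 1.72 (SE 0.20, adjusted p = 6.10e-06) and -1.50 (SE 0.18, adjusted p = 2.50e-06). Between days 3 and 6, Dhrs3 changed by -0.46 (SE 0.18) in cKO cells, not called without replicate 2, and rose by 2.76 (SE 0.19) in parental cells; the difference between these changes was -3.22 (SE 0.26, adjusted p = 2.01e-07).

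Aldh1a2 (ENSMUSG00000013584; chromosome 9, 71215789 to 71296243), the enzyme that makes most retinoic acid in early mouse embryos, dipped at day 3 in both genotypes and dipped further in cKO cells. At day 0 it was at 6.21, 7.68 and 7.81 CPM in cKO libraries, against 10.9, 10.5 and 8.58 CPM in parental libraries. At day 3 it was at 0.48, 0.50 and 0.32 CPM in cKO libraries, which is 6 to 11 counts each, against 1.75, 1.88 and 1.90 CPM in parental libraries. At day 6 it was at 10.2, 12.2 and 10.01 CPM in cKO libraries, against 9.63, 10.6 and 11.1 CPM in parental libraries. The genotypes do not overlap at days 0 and 3 and overlap at day 6. Aldh1a2 was lower in cKO cells by 2.08 at day 3 (log2 difference -2.08, SE 0.23, adjusted p = 3.98e-06), and at day 6 the difference was 0.05 (adjusted p = 0.824). The day 0 difference of -0.46 (SE 0.15, adjusted p = 0.0234) was no longer called without cKO replicate 1 (adjusted p = 0.119) or without parental replicate 1 or 2 (0.111 and 0.0826). The change between days 0 and 3 differed between genotypes by -1.62 (SE 0.28, adjusted p = 0.000394), and that between days 3 and 6 by 2.13 (SE 0.27, adjusted p = 2.20e-05).

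Cyp26a1 (ENSMUSG00000024987; chromosome 19, 37697798 to 37701536), the hydroxylase that breaks retinoic acid down and is itself induced by it in mouse, was at 0.22, 0.06 and 0.53 CPM in day 3 cKO libraries, only 1 to 10 counts, against 0.76, 0.68 and 1.01 CPM in parental libraries. The groups do not overlap at day 3, but the difference of -1.55 (SE 0.58) did not pass the test (adjusted p = 0.0808). Cyp26a1 at day 3 was called as lower without cKO day 6 replicate 2 (-1.55, SE 0.43, adjusted p = 0.00425). It was also called with only the day 3 libraries in the fit (adjusted p = 0.0150) and without cKO day 3 replicate 3 (adjusted p = 0.0358). At day 6 it was at 6.79, 1.84 and 6.09 CPM in cKO libraries, against 2.41, 3.08 and 1.82 CPM in parental libraries. Replicates 1 and 3 of the cKO group lie above all parental libraries and replicate 2 lies among them. Cyp26a1 was called higher at day 6 (0.99, SE 0.37, adjusted p = 0.0378), but not under total-count scaling (adjusted p = 0.0519) or DESeq2 (adjusted p = 0.0551), nor without cKO replicate 1 or 3 or parental replicate 1 or 3 (adjusted p of 0.168, 0.1202, 0.0954 and 0.1305); without cKO replicate 2 the difference was 1.36 (SE 0.23). Its change between days 3 and 6 differed between genotypes by 2.54 (SE 0.69, adjusted p = 0.0113).

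Crabp1 (ENSMUSG00000032291; chromosome 9, 54764748 to 54773110) and Crabp2 (ENSMUSG00000004885; chromosome 3, 87948666 to 87953376) encode small proteins that bind retinoic acid in the cytosol, Crabp2 being known for carrying it to the receptors. Crabp2 was at 139, 45.1 and 139 CPM in day 6 cKO libraries, against 239, 247 and 232 CPM in parental libraries. Every cKO library lies below every parental one. The log2 difference was -1.15 (SE 0.29, adjusted p = 0.00548), and -0.78 (SE 0.07) without replicate 2; with only the day 6 libraries in the fit it was not called (-1.09, adjusted p = 0.0704). Crabp1 was at 179, 35.1 and 172 CPM in day 6 cKO libraries, against 113, 115 and 112 CPM in parental libraries. Replicates 1 and 3 were thus above the parental range and replicate 2 below it, and the difference of 0.19 was not called (adjusted p = 0.741), while it was 0.63 (SE 0.09) and called without replicate 2. At day 0, Crabp2 was at 2.99, 3.92 and 4.94 CPM in cKO libraries, against 7.16, 7.81 and 8.58 CPM in parental libraries, and Crabp1 at 5.31, 5.33 and 8.44 CPM in cKO libraries, against 11.03, 12.3 and 11.97 CPM in parental libraries. Neither pair of groups overlaps, and neither difference passed the test (-0.98, adjusted p = 0.0871, and -0.87, adjusted p = 0.218), while both were called as lower without cKO day 6 replicate 2 (SE 0.12 and 0.13). Per kilobase of exon, Crabp2 made up 32.0, 43.8 and 32.9% of the summed Crabp1 and Crabp2 level in day 6 cKO libraries, against 56.2% ± 0.42 in parental libraries (SD, n = 3). At day 3 the shares were 82.7% ± 3.65 in cKO libraries and 77.0% ± 0.47 in parental libraries (SD, n = 3 each).

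Rarg (ENSMUSG00000001288; chromosome 15, 102234938 to 102257517), the receptor found in the caudal end of the mouse embryo, was higher in cKO cells at both ends of the time course. At day 0 it was at 116, 114 and 119.7 CPM in cKO libraries, against 43.4, 46.7 and 44.0 CPM in parental libraries. At day 3 it was at 81.1, 88.3 and 81.8 CPM in cKO libraries, against 72.1, 69.0 and 69.1 CPM in parental libraries. At day 6 it was at 33.8, 81.1 and 35.4 CPM in cKO libraries, against 17.0, 17.98 and 15.5 CPM in parental libraries. The genotypes do not overlap on any day, a trait shown on each single day by 40.1% to 52.4% of all tested genes. The log2 differences were 1.38 (SE 0.24, adjusted p = 0.000504) at day 0, 0.26 (adjusted p = 0.535) at day 3 and 1.57 (SE 0.25, adjusted p = 0.000152) at day 6; the day 6 difference was 1.03 (SE 0.08) without replicate 2, and the day 3 one was then called (0.26, SE 0.06). Rarg was the only one of the 9 to fall between days 3 and 6 in parental cells (-2.05, SE 0.25).

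Rarb (ENSMUSG00000017491; chromosome 14, 16430839 to 16819156), a receptor gene known as a direct target of retinoic acid, was at most 1.31 CPM in all libraries of days 0 and 3. At day 6 it was at 16.3, 4.19 and 16.9 CPM in cKO libraries, against 33.4, 37.3 and 30.7 CPM in parental libraries. Every cKO library was below every parental library. The difference was -1.44 (SE 0.35, adjusted p = 0.00329), and -1.03 (SE 0.12) without replicate 2; with only the day 6 libraries in the fit it was not called (-1.38, adjusted p = 0.0596). The exons of Rarb overlap those of Top2b and Gm48162 on the opposite strand, and no source used here states the strand setting of the counting; Top2b was at 247 CPM in day 6 cKO libraries and 269 CPM in parental libraries (means of 3), and its part in the Rarb counts was not tested.

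Rara (ENSMUSG00000037992; chromosome 11, 98927818 to 98974942), the broadly expressed receptor, was at 51.5, 57.8 and 56.4 CPM in day 6 cKO libraries, against 73.6, 79.9 and 73.5 CPM in parental libraries, with no overlap (-0.46, SE 0.08, adjusted p = 0.000146). At day 3 it was at 33.3, 37.6 and 33.1 CPM in cKO libraries, against 42.2, 45.4 and 48.8 CPM in parental libraries (-0.40, SE 0.08, adjusted p = 0.00197), also with no overlap. At day 0 the difference of 0.16 was not called (adjusted p = 0.161). Genes of chromosome 11 at 5 CPM or more (921 genes) had a median log2 difference of -0.38 at day 0, -0.39 at day 3 and -0.49 at day 6, against 0.02, 0.03 and -0.03 over 10454 genes of other chromosomes. Rara was thus at the chromosome's median at days 3 and 6 and above 90.1% of its genes at day 0; the part of this shift in the Rara result was not tested.

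**Figure D3:**
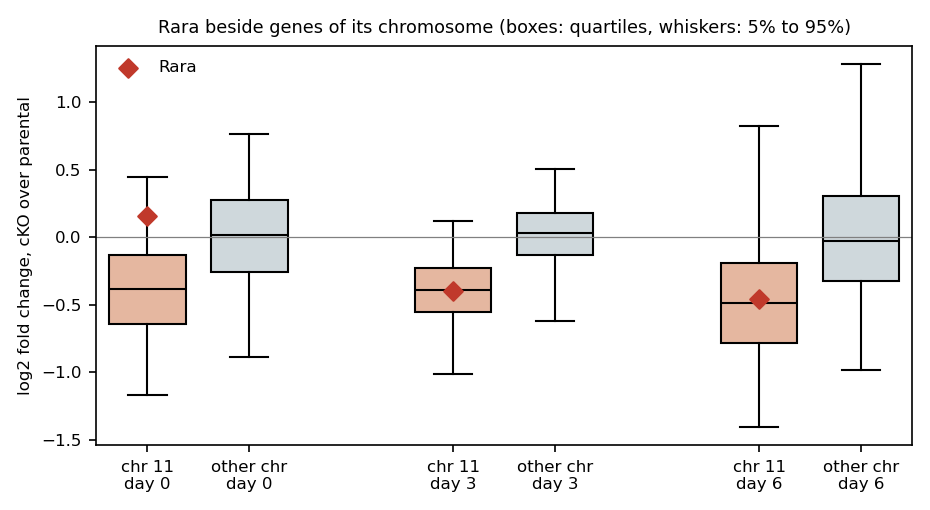
Log2 difference of cKO over parental cells for genes of chromosome 11 and of the other chromosomes at days 0, 3 and 6, with Rara marked. The chromosome 11 medians are -0.38, -0.39 and -0.49, and Rara is at 0.16, -0.40 and -0.46.

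The mix of receptor RNAs differed between genotypes on a scale of CPM per kilobase of exon, which allows genes to be set against each other. Rarg made up 72.3% ± 0.99 of the summed receptor level at day 0 in cKO libraries and 52.9% ± 1.16 in parental libraries, and 70.8% ± 0.36 in cKO libraries at day 3 and 61.0% ± 2.31 in parental libraries (SD, n = 3 each). At day 6 the Rarg share was 34.8, 57.5 and 34.0% in cKO libraries, against 14.2% ± 0.44 in parental libraries. Rarb made up 13.5, 2.41 and 13.1% at day 6 in cKO libraries, against 22.1 to 23.9% in parental libraries. The groups do not overlap in these shares; they were not tested. The summed level was 37.8 ± 1.49 CPM per kilobase at day 0 in cKO libraries and 19.8 ± 0.55 in parental libraries (SD, n = 3 each). At day 6 it was 22.8, 33.1 and 24.4 CPM per kilobase in cKO libraries, against 27.2, 29.6 and 26.3 in parental libraries, so that cKO replicates 1 and 3 lay below every parental library and replicate 2 above.

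**Figure D4:**
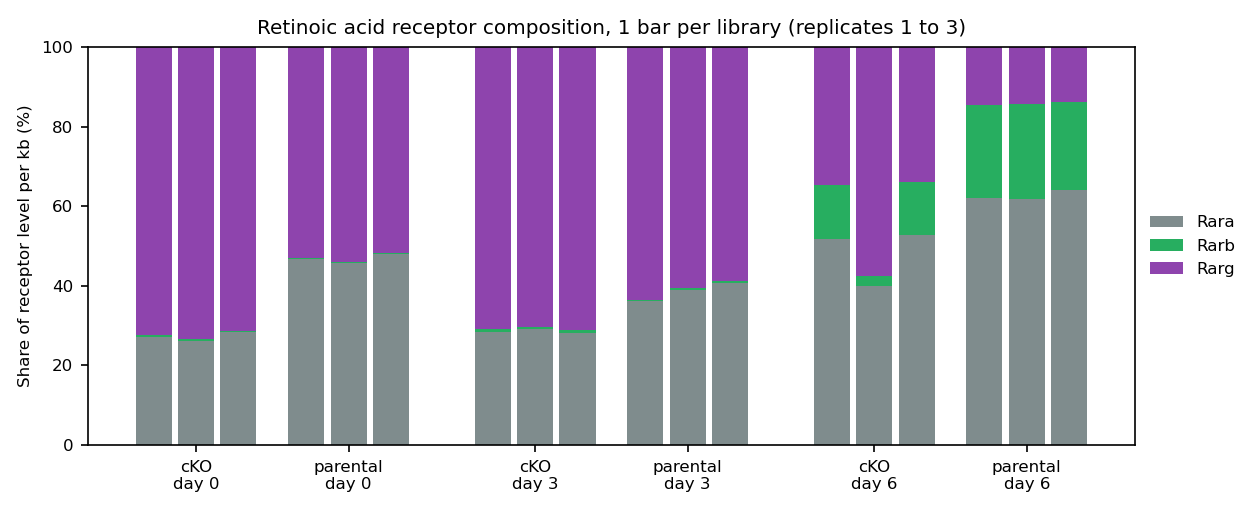
Share of Rara, Rarb and Rarg in the summed receptor level (CPM per kilobase of exon, in percent) in each of the 18 libraries. Rarg takes 71.3 to 73.3% at day 0 in cKO libraries and 51.7 to 54.0% in parental libraries, and Rarb takes its highest share, 22.1 to 23.9%, in day 6 parental libraries.

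Over time, 3 of the 9 genes changed between days 0 and 3 in cKO cells (76.0% of all genes did, and 6 of 9 against 80.6% without cKO day 6 replicate 2) and 6 of 9 in parental cells (75.5%; 9 of 9 against 80.8% without that library). Crabp2 rose in both, by 3.28 (SE 0.37) in cKO cells and by 2.24 (SE 0.34) in parental cells, and Aldh1a2 fell by 4.05 (SE 0.21) in cKO cells and by 2.43 (SE 0.16) in parental cells. Between days 3 and 6 all 9 changed in cKO cells (66.1% of all genes; 8 of 9 against 67.3% without that library) and all 9 in parental cells (65.3%). In cKO cells, Dhrs3 was not called under the other scalings (adjusted p = 0.0665 and 0.147) or without that library (0.136). The fall of Rarg in cKO cells (-0.74) was not called without cKO day 6 replicate 1 (adjusted p = 0.0515) or 3 (0.0552) or with the contrast's libraries alone (0.163), and was -1.27 without replicate 2. Rarb rose by 3.70 (SE 0.45) in cKO cells and by 5.73 (SE 0.47) in parental cells. Stra6 rose by 4.93 (SE 0.46) in cKO cells and by 3.31 (SE 0.41) in parental cells. The change between days differed between genotypes for 3 of the 9 genes up to day 3 (18.6% of all genes; 6 of 9 against 31.2% without that library) and for 6 of 9 after day 3 (26.0% of all genes; 8 of 9 against 31.4% without that library).

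Per kilobase of exon, Rarg led in day 0 cKO libraries (27.4 ± 0.71 CPM per kilobase, SD, n = 3) and Crabp1 in day 0 parental libraries (14.7 ± 0.83). Crabp2 led at day 3 in both genotypes. At day 6 Crabp1 led in cKO libraries, overlapping Crabp2, and Crabp2 led in parental libraries. Tested genes with a mean of at least 5 CPM were compared with each member by root mean square difference of centred log2 values over the 18 libraries. Nearest were Ikbkb for Rara (0.12), Zfp365 for Rarg (0.17), Fzd3 for Crabp2 (0.28), Rab3il1 for Crabp1 (0.29) and Wipi1 for Aldh1a2 (0.50). Further off were Boc for Rarb (0.53), Ednra for Stra6 (0.53), Ring1 for Dhrs3 (0.54) and Rps6ka3 for Cyp26a1 (0.57). A member's own root mean square around its mean differs, for example 0.36 for Rara, 0.90 for Dhrs3 and 2.50 for Stra6. The distances can therefore not be ranked between members.

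Wider lists of genes of the same pathway were chosen with earlier results of these data known and are described by counts, to be read against the shares of all genes given above. Of 14 tested genes for retinoid uptake and synthesis, 1 was higher and 5 lower in cKO cells at day 0, none higher and 2 lower at day 3, and 5 were higher and 1 lower in cKO cells at day 6, with 4 lower at day 3 and 4 higher at day 6 without cKO day 6 replicate 2. Among the higher ones was Rdh10, the dehydrogenase that makes retinaldehyde, at 47.9 ± 12.03 CPM in cKO libraries and 15.6 ± 0.87 CPM in parental libraries (SD, n = 3 each; 1.61, SE 0.14, adjusted p = 9.58e-08). Of 3 tested genes for breakdown and delivery, none was called at day 0, 1 was lower at day 3 and 1 higher at day 6, in both cases Cyp2s1 (without that library, 2 lower at day 0, 1 higher and 1 lower at day 3, and 2 higher at day 6), at -2.13 (SE 0.38) and 1.63 (SE 0.41; 0.85 without cKO day 6 replicate 2). Of 15 genes for retinoid X receptors, partners and co-regulators, 5 were higher and 4 lower at day 0, 1 higher and 3 lower at day 3, and 1 higher and 4 lower at day 6, with Ncor1, a co-repressor gene of chromosome 11, at -0.77 (SE 0.08), Rxrb at -0.49 (SE 0.10) and Rxra at -0.45 (SE 0.10). Without that library the counts were 6 and 4, 2 and 5, and 2 and 5. Of 28 genes known to respond to retinoic acid, 6 were higher and 1 lower at day 0, none was higher and 9 were lower at day 3, and 5 were higher and 12 lower at day 6. Without that library, 6 were higher and 6 lower at day 0, 1 higher and 12 lower at day 3, and 7 higher and 14 lower at day 6. Their median log2 difference was 0.06 at day 0, -0.76 at day 3 and -0.57 at day 6, and -0.24 at day 6 without cKO replicate 2. Stra8, known as a gene induced by retinoic acid, was at 3.57 ± 1.02 CPM at day 0 in cKO libraries and 28.4 ± 0.39 CPM in parental libraries (-2.98, SE 0.18, adjusted p = 1.90e-09). It was the only gene of this list called lower at day 0 with all libraries. Among those called higher at day 0 were Cdx1 (1.64, SE 0.22), Tlx2 (2.57, SE 0.41) and Meis2 (1.54, SE 0.32). At day 6, Hic1, also on chromosome 11, was at 0.90 ± 0.23 CPM in cKO libraries and 5.77 ± 0.82 CPM in parental libraries (SD, n = 3 each; -2.68, SE 0.24, adjusted p = 9.33e-08). Hoxd4 was at 9.91 ± 4.96 CPM at day 6 in cKO libraries and 74.4 ± 0.99 CPM in parental libraries (-2.91, SE 0.35, adjusted p = 1.56e-05). Zfp703 went the other way at day 6, at 147 ± 5.60 CPM in cKO libraries and 92.3 ± 4.37 CPM in parental libraries (0.67, SE 0.10, adjusted p = 4.72e-05). Among those called lower at day 3 were Zfp703 (-2.21, SE 0.14), Cdx1 (-3.89, SE 0.25) and Stra8 (-6.43, SE 0.33). Hoxb1, on chromosome 11, was also called lower at day 3 (-2.33, SE 0.23). Stra8 was lower at day 6 too (-8.06, SE 0.32), at a mean of 0.05 CPM in cKO libraries and 14.1 CPM in parental libraries.

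Markers of other cell types moved with the genotype. At day 6, 10 neural markers summed to 564 to 590 CPM in cKO libraries and 802 to 877 CPM in parental libraries. Their members went both ways: Nes, the largest, had means of 446 CPM in cKO and 433 CPM in parental libraries. Tubb3 had means of 67.8 and 58.6 CPM, and Pax6 of 25.3 and 153 CPM. At day 3 the neural sum was higher in cKO libraries (360 to 377 CPM) than in parental libraries (269 to 296 CPM). At day 6, 8 somite markers summed to 440, 136 and 441 CPM in cKO libraries and 278 to 300 CPM in parental libraries, so that replicate 2 was again the low one. At day 6, 10 extraembryonic endoderm markers summed to 538 to 774 CPM in cKO libraries and 234 to 249 CPM in parental libraries. Most of this sum was Lamb1 (means of 439 CPM in cKO and 173 CPM in parental libraries). At day 0, before differentiation, the same markers summed to 738 to 913 CPM in cKO and 642 to 677 CPM in parental libraries. Most of that was Apoe (means of 650 and 539 CPM), so the sum is not specific to endoderm. At day 3, 9 streak and presomitic mesoderm markers summed to 120 to 231 CPM in cKO libraries and 608 to 732 CPM in parental libraries. By day 6 the order was reversed, with streak sums of 25.8 to 62.6 CPM in cKO and 19.2 to 19.6 CPM in parental libraries. At day 0, 8 fibroblast and feeder markers summed to 260 to 270 CPM in cKO libraries and 867 to 929 CPM in parental libraries. By day 6 the fibroblast sum was higher in cKO libraries (1443 to 1548 CPM) than in parental libraries (962 to 1025 CPM). Neural crest markers summed to 169 to 182 CPM in cKO and 116 to 130 CPM in parental libraries at day 6. Lateral plate and heart markers summed to 32.3 to 56.9 CPM in cKO and 9.39 to 10.2 CPM in parental libraries at day 6. No neural or somite marker was at 0 in any day 6 library, and at most 1 endoderm marker was; at day 3, at most 1 streak marker was at 0. The part of these shifts in the results for the 9 genes was not tested.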

How the data were processed

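The authors deposited raw counts per gene for 18 libraries of total RNA (Illumina). Per the submitters' processing notes, reads were handled with Novoalign and DESeq2 1.10.0 on GRCm38; the sources used here name neither the counting tool, the annotation nor the strand setting. From the deposited counts, edgeR 4.0.16 (R 4.3.3) was fitted to all 6 groups with TMM scaling after its filter on low counts (20267 genes tested), and quasi-likelihood tests were adjusted over all tested genes at 0.05. CPM values use library totals (13704958 to 26995420 counts) scaled by TMM. Between libraries of a group, chi-square per degree of freedom over genes was 3.37 to 106, above counting error alone. The exception was cKO day 0 replicates 1 and 2, at 1.23, where counting error makes up most of the spread. Counting error also weighs more for genes with few counts. Exon lengths and coordinates come from GENCODE M21 (GRCm38), which held 25221 of the 25279 IDs, and promoter windows from RefSeq (GRCm38.p6). The members and lists were chosen with earlier results of these data known. By the rule for naming, the genes outside the 9 are the targeted gene, those nearest in pattern, and list genes among the 4 called with the smallest adjusted p for a list and day; not every gene the rule allows is named, and Top2b is named for its overlap with Rarb. The code was tested on simulated data. Alternatives were other scalings and filters, DESeq2 1.42.0, each contrast's libraries alone, and each library of the groups compared left out; leaving cKO day 6 replicate 2 out of every comparison was chosen after seeing the data.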

Additional observations from a re-analysis of the deposited data

Results flagged for a closer look

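The change over time was compared between cKO and parental cells by a test of the difference itself. It differed for 3 of the 9 genes up to day 3 (18.6% of all genes). After day 3 it differed for 6 of the 9 (26.0% of all genes). Between days 0 and 3 the cKO change minus the parental change was -1.62 for Aldh1a2, -0.55 for Rara and -1.13 for Rarg on the log2 scale. Between days 3 and 6 it was 2.13 for Aldh1a2, 2.54 for Cyp26a1 and 1.31 for Rarg, and -3.22 for Dhrs3, -2.03 for Rarb and -1.21 for Crabp2. Without cKO day 6 replicate 2, Rarg between days 3 and 6 was at 0.77, Crabp2 at -0.84 and Rarb at -1.62, and all 3 were still called. The Rarg difference up to day 3 lost its call with any of 10 libraries left out in turn (adjusted p of 0.0505 to 0.0661), at values of -1.10 to -1.16. The Crabp2 difference after day 3 likewise lost its call without any library of day 3 or any parental library of day 6 (adjusted p of 0.0699 to 0.0931). The Rarb difference after day 3 lost its call without cKO day 3 replicate 1 or 3, without any parental library of day 3, and without parental day 6 replicate 1 or 2 (adjusted p of 0.0554 to 0.155). It was also lost with no filter on low counts (adjusted p = 0.0599) and with the contrast's libraries alone (0.0883), and so was the Crabp2 difference (0.0780 and 0.0770).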

How the results depend on the processing

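The direction of most genotype differences held under every scaling, filter and tool; the exceptions follow. Aldh1a2 at day 6, not called, was at -0.032 under total-count scaling, -0.048 without cKO replicate 2 and -0.0091 without parental replicate 1, and at most 0.097 with any library left out. Crabp1 at day 6, not called, was at -0.13 without cKO replicate 1 and -0.078 without cKO replicate 3, and 0.63 without cKO replicate 2. Rarb in cKO cells, day 3 against day 0, was at -0.14 without cKO day 3 replicate 1 and at most 0.53. The genotype difference of Rara between days 3 and 6 was 0.039 with no filter on low counts, 0.033 with the libraries of the contrast alone and 0.00070 without cKO day 3 replicate 2, with a lowest value of -0.11. With the libraries of the contrast alone, 6 of the 9 genes were called at day 0, 7 at day 3 and 3 at day 6, and 5876 and 5721 genes of the table at days 3 and 6. In cKO cells, day 3 against day 0, 5 of 9 were called with no filter, with DESeq2 and with the contrast's libraries alone. The main fit called 31.6% of all genes at day 0 and 76.0% for day 3 against day 0 in cKO cells. For these comparisons the shares of all genes under the alternative fits just named are not given here. For the genotype difference up to day 3, 6 of 9 and 6418 genes were called with the contrast's libraries alone. Leaving out cKO day 6 replicate 2, chosen for all comparisons after seeing the data, gave 6 of 9 at day 0, 7 of 9 and 6069 genes at day 3, 6 of 9 for day 3 against day 0 in cKO cells, and 6 of 9 and 6496 genes for the genotype difference up to day 3. With each library of the groups compared, and cKO day 6 replicate 2, left out in turn, calls among the 9 genes ranged over 2 to 6 at day 0, 3 to 7 at day 3 and 5 to 8 at day 6, over 3 to 6 (cKO) and 4 to 9 (parental) for day 3 against day 0, over 8 to 9 (cKO) and 9 to 9 (parental) for day 6 against day 3, and over 2 to 6 and 4 to 8 for the genotype differences up to and after day 3. Genes called over the table ranged over 5081 to 8834 at day 0, 2197 to 6069 at day 3 and 7871 to 9495 at day 6. For day 3 against day 0 they ranged over 14950 to 16769 (cKO) and 14683 to 16821 (parental). For day 6 against day 3 they ranged over 12725 to 14000 (cKO) and 12269 to 14945 (parental). For the genotype differences they ranged over 2941 to 6496 and 4230 to 6530. The cause of these shifts was not tested. No paired analysis was possible because the labels give the libraries no replicate numbers. Few counts limit Cyp26a1, Rarb and Stra6 at days 0 and 3 and Aldh1a2 in cKO cells at day 3.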

Other observations

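cKO day 0 replicates 1 and 2 were closer to each other than any other pair within a group by chi-square: their chi-square per degree of freedom over genes was 1.23, against 3.37 to 106 for the other pairs. They still differed by more than sampling noise over 14373 genes and were counted as 2 libraries.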
